A study of Mus musculus with 8 samples.

Results

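A set of 10 genes with a very high level in CD8α+ over CD8α- splenic dendritic cells, and with little known of their role in these cells, was followed on every array: Mab21l3, Hepacam2, Fam149a, Ttc39a, Gcsam, Cltrn, Plpp1, Itm2a, Adgrf5 and Igf2r. They were chosen by the subset difference on these same arrays, so that difference is described here without a test, and it is no evidence for anything further. The 10 genes are read by 17 probe sets, of 18193 genes and 45101 probe sets in all. A probe set is a group of short oligonucleotides on the array that reads 1 transcript region. Of the 17 probe sets, 15 reached a log2 value of 5 on at least 2 of the 8 arrays, and all 10 genes kept at least 1 such probe set. The whole table kept 8763 genes by the same filter.

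The dendritic cells came from the spleens of untreated female C57BL/6 mice, 10 weeks old per the sample labels and between 8 and 10 weeks per the series design, either wild type or RAG2-/-. Mice without RAG2 cannot rearrange antigen receptor genes and lack mature T and B lymphocytes. Each genotype gave a CD8α+ and a CD8α- population, with 2 arrays each, so 8 arrays in 4 groups of 2. The labels number the replicates without saying that they came from separate mice or whether mice were pooled, and p-values may then reflect only the technical spread between arrays. The sources used here name no sorting marker other than CD8α. All values are log2 expression values as deposited, and the number of arrays limits their precision.

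CD8α+ dendritic cells of the spleen are a conventional dendritic cell lineage that depends on the transcription factors Batf3 and Irf8. They are known for taking up dying cells and for presenting the captured antigen on MHC class I molecules to CD8 T cells. Conventional CD8α- dendritic cells of the spleen, many of which carry CD4 and Sirpα, are known for presenting antigen on MHC class II molecules. The 10 genes fall into 3 loose kinds by what their products are known to do. Hepacam2 (an immunoglobulin-domain membrane protein), Itm2a (a single-pass membrane protein with a BRICHOS domain), Adgrf5 (an adhesion G protein-coupled receptor known from lung surfactant control) and Cltrn (collectrin, which supports amino acid transporters in the kidney) are membrane proteins. Plpp1 (a phosphatase that removes phosphate from lipids such as lysophosphatidic acid at the cell surface) and Igf2r (the cation-independent mannose 6-phosphate receptor, which carries acid hydrolases to lysosomes and clears IGF2) act on lipids or on sorted cargo. Gcsam is a signalling adaptor first known from germinal centre B cells, Mab21l3 belongs to the Mab21 fold family, Ttc39a is a tetratricopeptide repeat protein, and Fam149a has hardly been studied.

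Most of the listed CD8α+ and CD8α- dendritic cell markers tested followed the labels of the populations. Cd8a stood at 11.73 and 11.94 on the wild type CD8α+ arrays against 5.80 and 6.10 on the CD8α- arrays, and at 12.31 and 12.51 against 6.90 and 7.70 in RAG2-/-. Of 8 CD8α+ dendritic cell markers with a probe set, 7 were called higher in CD8α+ cells in each genotype by limma at an adjusted p under 0.05, and Itgax was at 12.45 or more on every array. Of 5 CD8α- dendritic cell markers tested, 4 were called lower in CD8α+ cells in each genotype. Rbpj was instead called higher there in wild type, with a difference of 0.91, and was not called in RAG2-/-. The libraries differed in 2 respects that touch the results. The lowest value was 1.16 on the wild type arrays and 2.23 on the RAG2-/- arrays, where between 41.3% and 42.8% of probe sets stood exactly at it. The deposited RAG2-/- values thus have another floor, and genotype and processing cannot be told apart. Neutrophil transcripts (5 of 6 listed genes with a probe set) were at 5 or more for all 5 genes on RAG2-/- CD8α- replicate 2 and RAG2-/- CD8α+ replicate 1, with summed log2 values of 51.9 and 43.5 against 14.2 to 18.6 on the other 6 arrays.

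The promoter windows of these genes differed widely in their CpG content. RefSeq (GRCm38.p6) gave 11 promoter windows for 9 of the 10 genes, each reaching from 250 bases before to 50 bases after an annotated start, and none for Plpp1. Which start these cells use is not known from the arrays. Windows of 4 genes are shown: that of the gene with the largest subset difference, those with the fewest and the most CpG dinucleotides, and the only one that held any of the motifs searched. In the first 3, CpG dinucleotides are in capitals. Each is written 5′ to 3′ on the gene's own strand.
Mab21l3 (chr3:101836174-101836473, minus strand): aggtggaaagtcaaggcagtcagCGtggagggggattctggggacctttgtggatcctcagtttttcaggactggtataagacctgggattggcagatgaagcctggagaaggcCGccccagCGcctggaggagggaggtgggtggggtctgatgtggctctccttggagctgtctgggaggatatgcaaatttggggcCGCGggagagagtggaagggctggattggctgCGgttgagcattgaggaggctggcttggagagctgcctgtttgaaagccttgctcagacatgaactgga
Ttc39a (chr4:109415397-109415696, plus strand): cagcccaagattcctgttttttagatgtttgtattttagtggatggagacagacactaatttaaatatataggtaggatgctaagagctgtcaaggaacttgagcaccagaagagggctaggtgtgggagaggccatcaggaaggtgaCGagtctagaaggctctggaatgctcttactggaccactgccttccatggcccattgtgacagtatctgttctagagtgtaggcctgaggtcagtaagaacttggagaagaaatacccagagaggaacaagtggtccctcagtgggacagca
Igf2r (chr17:12769657-12769956, minus strand): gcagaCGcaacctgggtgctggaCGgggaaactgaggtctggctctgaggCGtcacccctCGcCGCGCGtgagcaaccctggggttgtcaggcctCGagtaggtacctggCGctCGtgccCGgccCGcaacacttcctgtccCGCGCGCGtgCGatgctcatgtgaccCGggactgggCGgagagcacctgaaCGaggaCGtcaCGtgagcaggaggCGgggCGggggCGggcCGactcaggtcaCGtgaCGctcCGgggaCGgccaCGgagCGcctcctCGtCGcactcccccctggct
In the window of Hepacam2 the capitals mark 2 overlapping matches to TATAAA, 1 on each strand.
Hepacam2 (chr6:3494449-3494748, minus strand): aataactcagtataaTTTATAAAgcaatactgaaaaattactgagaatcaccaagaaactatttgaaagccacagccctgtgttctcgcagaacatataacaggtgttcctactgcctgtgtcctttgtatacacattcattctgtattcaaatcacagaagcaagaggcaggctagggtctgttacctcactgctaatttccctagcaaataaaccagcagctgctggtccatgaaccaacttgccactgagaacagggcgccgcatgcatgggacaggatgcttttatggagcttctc
The Igf2r window held 34 CpG dinucleotides and a GC content of 70.7%, against 6 and 57.7% for Mab21l3, 3 and 43.0% for Hepacam2 and 1 and 47.0% for Ttc39a. The median over all 32851 windows was 7 CpG dinucleotides and 52.7% GC. Both strands were searched for 5 motifs. TGANTCA (an AP-1 motif, the kind Batf3 binds with Jun partners) is in 7.81% of all windows, an ETS and IRF composite (GGAA, any 2 bases, GAAA) in 2.72%, an interferon response motif (GAAA, any 2 bases, GAAA) in 3.44% and GAGGAAGT (a PU.1 motif) in 3.20%, and none of the 11 windows held any of these 4. TATAAA is in 13.6% of all windows and in 1 of the 11, that of Hepacam2, where both matches lie near the upstream end of the window. A match is a description of the letters and not a binding site.

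In both genotypes all 10 genes were higher in CD8α+ than in CD8α- cells, where most of them were at background. The lowest CD8α+ value of a leading probe set was 5.83 (Adgrf5, wild type), and the highest CD8α- value was 8.49 (Gcsam, RAG2-/-). The 2 CD8α+ arrays stood above the 2 CD8α- arrays in each genotype for every one of the 10 leading probe sets, as the choice of members required. Over all 8763 genes that order held for 32.4% in wild type and 30.6% in RAG2-/-, and limma called 17.1% and 21.8% of genes in the subset comparison in either direction. The leading probe set of a gene is the one with the highest mean over the 8 arrays. The median difference over the members was 6.42 in wild type and 5.95 in RAG2-/-, beside 0.01 and 0.02 over all genes. In sorted bulk RNA, fewer expressing cells and less RNA per cell cannot be told apart. A value under 5 is taken as background, and a fold against a group under 5 on both arrays is given as a lower bound against 5.

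**Figure D1:**
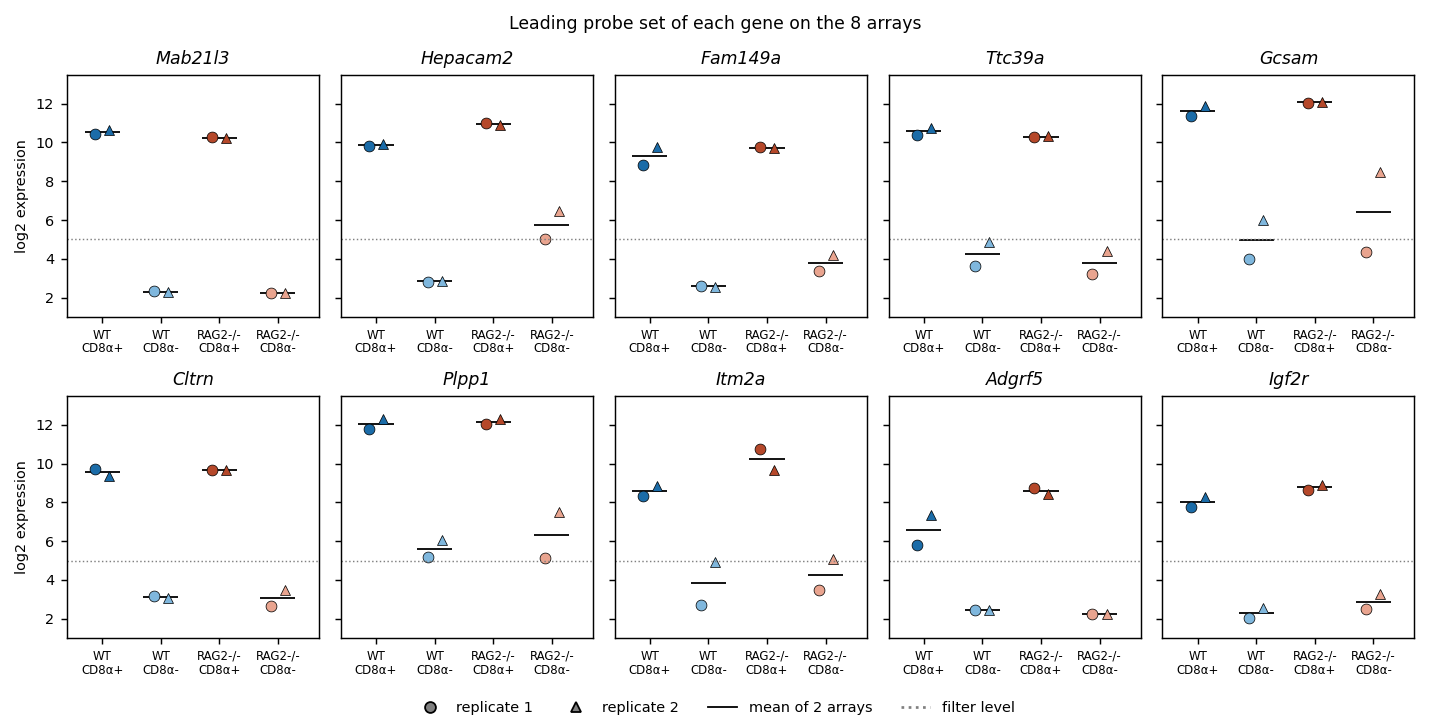
Log2 expression (y axis) of the leading probe set of each of the 10 genes, 1 panel per gene, in the 4 groups (x axis). Circles are replicate 1, triangles replicate 2, bars the mean of the 2 arrays, and the dotted line the level of 5. CD8α+ arrays lie above CD8α- arrays in every panel, and RAG2-/- CD8α- replicate 2 rises to 8.49 for Gcsam and 7.52 for Plpp1.

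Mab21l3 had the largest log2 subset difference of all 8763 genes in both genotypes. Its single probe set (1455241_at) read 10.45 and 10.66 on the wild type CD8α+ arrays and 2.33 and 2.29 on the CD8α- arrays, a difference of 8.24 (SE 0.16) and at least 47.0-fold. In RAG2-/- it read 10.28 and 10.22 against 2.23 and 2.23, the array-wide floor, a difference of 8.01 and at least 38.0-fold. All 4 CD8α- values were at background, so this rank depends on how low the background reads. Against the level of 5 the wild type bound of Ttc39a was higher, at least 47.6-fold, and Plpp1 differed by 85.9-fold.

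Ttc39a and Cltrn, also with 1 probe set each, had a similar size of difference. Ttc39a (1455162_at) read 10.39 and 10.75 against 3.63 and 4.88 in wild type, and 10.26 and 10.31 against 3.21 and 4.40 in RAG2-/-, at least 47.6-fold and 39.0-fold. Cltrn (1435064_a_at) read 9.71 and 9.37 against 3.18 and 3.06 in wild type, and 9.69 and 9.68 against 2.67 and 3.47 in RAG2-/-, at least 23.2-fold and 25.7-fold. All CD8α- values of both genes were under 5, and the RAG2-/- CD8α+ values lay just under the wild type ones for Ttc39a and between them for Cltrn. Cltrn is best known from epithelium, and none of the 4 epithelial markers on the list (Epcam, Krt8, Krt18, Cdh1) reached 5 on any array. The part of epithelial cells in the Cltrn values was not tested.

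Hepacam2, the last member with 1 probe set, read 9.83 and 9.93 against 2.83 and 2.87 in wild type, at least 29.4-fold. In RAG2-/- it read 11 and 10.88 against 5.03 and 6.48, a 36.4-fold difference. It was the only member under 5 on both wild type CD8α- arrays and above 5 on both RAG2-/- CD8α- arrays. The lower of these RAG2-/- values, 5.03, is just above that level. The name of its probe set, 1435939_s_at, ends in _s_at, which marks probes that may match more than 1 transcript.

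Fam149a (1455793_at) read 8.85 and 9.76 against 2.59 and 2.56 in wild type, and 9.74 and 9.72 against 3.37 and 4.17 in RAG2-/-, at least 19.8-fold and 26.5-fold. Its second probe set (1437950_at) read 8.22 and 7.89 against 3.04 and 3.07, and 8.03 and 8.01 against 3.02 and 3.02. Both probe sets placed the gene in CD8α+ cells, with differences of 6.73 and 5.0 in wild type. The second one showed no rise on the RAG2-/- CD8α- arrays, where it gave the same value on both.

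Gcsam (1420544_at) read 11.37 and 11.89 against 3.97 and 5.99 in wild type, a difference of 6.65, for which no fold is given because the CD8α- mean is under 5. In RAG2-/- it read 12.02 and 12.11 against 4.36 and 8.49. The last of these values, on CD8α- replicate 2, lay 4.13 above its replicate, the widest gap between replicates of any leading probe set of the 10 genes. The second probe set (1442582_at) gave 9.55 and 10.01 against 3.11 and 3.08 in wild type, and 10.50 and 10.81 against 2.76 and 6.33 in RAG2-/-, so both probe sets were high on that array. Gcsam is known from B cells. The B cell genes Cd79a, Pax5 and Ebf1 were at 3.34 or less on all 8 arrays. Cd79b stood between 5.96 and 9.27 in wild type and between 4.49 and 8.29 in RAG2-/-, and Ms4a1 between 10.15 and 11.05 and between 5.81 and 7.62. The floors of the genotypes differ, and the part of B lineage cells in the Gcsam values was not tested.

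Plpp1 (1422619_at) read 11.80 and 12.28 in wild type CD8α+ cells against 5.20 and 6.04 in CD8α- cells, an 85.9-fold difference. RAG2-/- cells read 12.03 and 12.27 against 5.13 and 7.52, a 56.6-fold difference. It was the only member at 5 or more on all 4 CD8α- arrays. The second probe set (1422620_s_at) read 10.39 and 10.90 against 2.61 and 2.59 in wild type, and 10.54 and 10.86 against 4.90 and 5.81 in RAG2-/-. The third (1425449_at) lay between 2.23 and 2.69 on all 8 arrays and registered nothing in either subset.

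Itm2a (1423608_at) read 8.35 and 8.82 against 2.73 and 4.93 in wild type, at least 12-fold. In RAG2-/- it read 10.74 and 9.68 against 3.47 and 5.07, a difference of 5.94, for which no fold is given because the CD8α- mean is under 5. Its probe sets disagreed in wild type, where the second (1451047_at) gave 3.69 and 4.0 against 3.67 and 3.65. In RAG2-/- the second gave 8.61 and 6.22 against 5.08 and 5.08. On the RAG2-/- CD8α- pair 6 of the 17 probe sets of the members gave identical values (to within 1e-06), as did 48.6% of all probe sets, 503 of them at 5 or more. A value just above 5 there, such as the pair at 5.08, therefore need not be a signal. Both Itm2a probe sets were higher on RAG2-/- CD8α+ replicate 1, an array with neutrophil transcripts, than on replicate 2, and the part of those transcripts was not tested. Itm2a is also expressed by T cells, and of the 5 T cell markers with a probe set, of 7 listed, only Cd3d reached 5, at 5.56 on wild type CD8α+ replicate 2. The summed log2 value of those 5 lay between 16.9 and 19.2 in wild type and between 12.5 and 12.6 in RAG2-/-. Apart from the 5.56 of Cd3d these are background values, whose floor differs between the genotypes. The sums thus do not measure T cell transcripts, and the part of T cells in the Itm2a values was not tested.

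Adgrf5 (1440830_at) had the widest gap between wild type CD8α+ replicates among the members, reading 5.83 and 7.36 against 2.43 and 2.48, at least 3.02-fold. RAG2-/- cells read 8.74 and 8.45 against 2.25 and 2.25, at least 12.1-fold. Its second probe set (1440225_at) stayed at 3.81 or less on all 8 arrays. Adgrf5 is also known from endothelium. Of 9 endothelial markers, Cdh5, Pecam1, Kdr, Tek, Tie1 and Emcn were at 2.59 or less on every array. Esam lay between 6.04 and 9.70 and Vwf between 6.45 and 9.15, and Stab2 stood between 3.34 and 3.65 in wild type and between 7.42 and 9.10 in RAG2-/-. The summed log2 value of the 9 was 33.2 to 34.9 in wild type and 36.0 to 38.9 in RAG2-/-. The part of endothelial cells in the Adgrf5 values was not tested.

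Igf2r (1424112_at) read 7.78 and 8.26 against 2.04 and 2.57 in wild type, and 8.62 and 8.92 against 2.50 and 3.27 in RAG2-/-, at least 8.12-fold and 13.7-fold. Its second probe set (1424111_at) read 6.64 and 5.82 against 3.06 and 2.95 in wild type. RAG2-/- cells gave 3.71 and 7.04 against 2.23 and 2.51, so 1 of the 2 CD8α+ arrays was at background there while the leading probe set was not. A further probe set assigned to Igf2r together with another gene was not used.

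Across the 7 probe sets that were not the leading one of their gene, 2 were under 5 on all 8 arrays, namely the third of Plpp1 and the second of Adgrf5. The CD8α+ mean exceeded the CD8α- mean by at least 1 in 4 of the 7 in wild type and in 5 in RAG2-/-. Itm2a was the gene whose second probe set did so in RAG2-/- alone. Probe positions were not used here, so whether the disagreeing probe sets read different transcript ends was not tested.

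**Figure D2:**
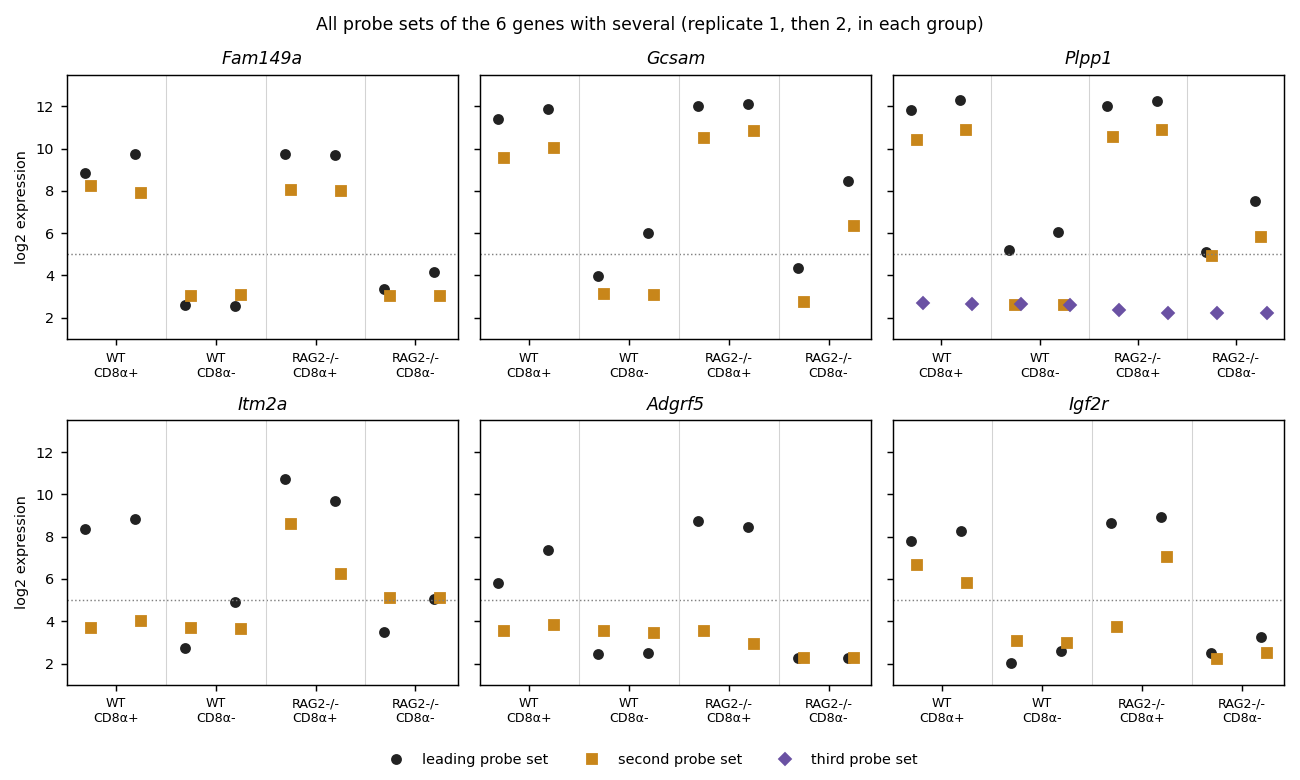
Log2 expression (y axis) of all probe sets of the 6 genes with more than 1, by group (x axis), with replicate 1 left of replicate 2 in each group. All probe sets of Fam149a and Gcsam lie higher in CD8α+ than in CD8α- cells, though at different levels. The third Plpp1 and second Adgrf5 probe sets stay under 5. The second Itm2a probe set reads 3.69 and 4.0 in wild type CD8α+ cells. The second Igf2r probe set reads 3.71 on RAG2-/- CD8α+ replicate 1.

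Replicates were tight in RAG2-/- CD8α+ cells and wide in RAG2-/- CD8α- cells. The median SD of 2 arrays over the 10 leading probe sets was 0.07 in RAG2-/- CD8α+ cells (0.19 over all genes), 0.33 in wild type CD8α+ cells (0.16), 0.23 in wild type CD8α- cells (0.14) and 0.71 in RAG2-/- CD8α- cells (0.20). On RAG2-/- CD8α- replicate 2, 5 of the 10 genes (Hepacam2, Ttc39a, Gcsam, Plpp1 and Itm2a) lay more than 1 above replicate 1, beside 5.92% of all genes. Of these 5, Ttc39a was under 5 on both arrays and Itm2a reached only 5.07. On wild type CD8α- replicate 2, a rise of over 1 held for 3 of 10 (Ttc39a, Gcsam and Itm2a), beside 1.64% of all genes. Ttc39a and Itm2a were under 5 on both of those arrays. In CD8α- cells 8 of the 10 genes were under 5 on both wild type arrays, and 6 on both RAG2-/- arrays. The members' SDs and shares there thus describe background values in part. In CD8α+ cells the only gaps over 1 of leading probe sets were those of Adgrf5 in wild type, with replicate 2 higher by 1.54, and of Itm2a in RAG2-/-, with replicate 2 lower by 1.06. Replicate 2 was higher by over 1 in 2.54% of all genes in wild type and 2.35% in RAG2-/-, and for 1 and 0 of the 10 genes.

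The same RAG2-/- CD8α- array was also higher in most of the 8 CD8α+ dendritic cell markers measured. Expressed as a share of the mean of the CD8α+ arrays of its genotype, its level was 8.38% for Gcsam, 4.53% for Hepacam2 and 4.04% for Plpp1, against 0.480%, 1.66% and 0.771% on replicate 1. The corresponding shares were 3.82% against 2.19% for Cd8a, 30.8% against 9.13% for Irf8, 43.7% against 9.30% for Cd24a and 13.4% against 6.13% for Tlr3. Those of Itgae and Xcr1 were 1.61% against 0.975% and 0.973% against 0.624%. Ly75 went the other way, at 9.55% against 17.5%, and Batf3 was at 82.2% and 80.9%. Mab21l3 was at 0.387% on both arrays, the share that the array-wide floor gives. It is also the array with the highest neutrophil transcripts, and the part of either in the members' values was not tested.

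**Figure D3:**
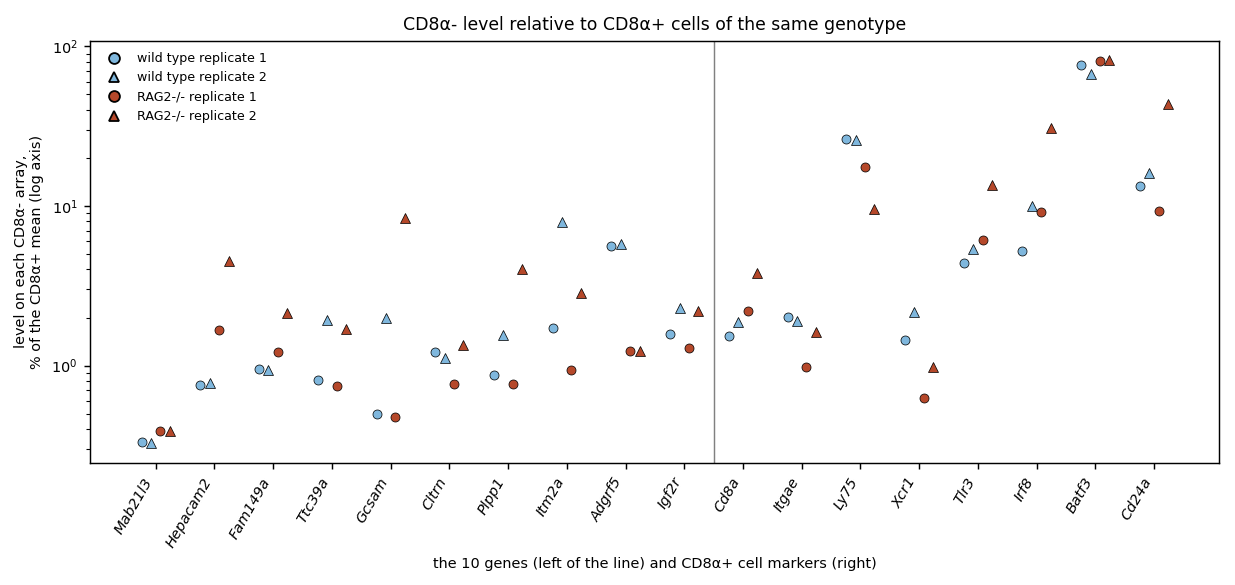
Level on each CD8α- array as a percentage of the mean CD8α+ level of the same genotype (log y axis), for the 10 genes left of the line and 8 CD8α+ cell markers right of it. Circles and triangles are replicates 1 and 2, blue wild type and red RAG2-/-. On RAG2-/- replicate 2 Gcsam reaches 8.38% and Mab21l3 stays at 0.387%; for levels under the log2 value of 5 the share is set by the background.

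Knockout and wild type were then compared within each subset, to ask whether the absence of mature lymphocytes went with a different level of these genes. This comparison was not the one the genes were chosen by, but it uses the same arrays, and a choice by high CD8α+ levels is not independent of it. In CD8α+ cells, 1 of the 10 genes was called and it was higher in RAG2-/-, where limma called 36.9% of all genes, 20.8% as higher and 16.1% as lower. In CD8α- cells, 2 of the 10 were called, both higher in RAG2-/-, where 40.5% of all genes were called, 23.4% as higher and 17.1% as lower. No result about the members is read from these shares. In CD8α- cells 6 of the 10 were under 5 on all 4 arrays and passed the filter only through CD8α+ arrays. In CD8α+ cells the number called moved from 1 to 6 with each array centred on its median. Those medians were 2.97 to 3.06 on the wild type and 2.33 to 2.38 on the RAG2-/- arrays, all at background. Centring thus raised every RAG2-/- value relative to wild type. The median difference over the members was 0.43 in CD8α+ and 0.51 in CD8α- cells, beside 0.09 and 0.14 over all genes.

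Adgrf5 was the member called in CD8α+ cells. Its level of 5.83 and 7.36 in wild type and of 8.74 and 8.45 in RAG2-/- differed by 2.0 (SE 0.44, limma, adjusted p = 0.0134), or 4.0-fold, with both RAG2-/- arrays above both wild type arrays. The call was lost without RAG2-/- CD8α+ replicate 1, when only the 2 groups were fitted, and without the 2 arrays with neutrophil transcripts, with a highest adjusted p of 0.104. Stab2, a sinusoidal endothelial and scavenger receptor gene, also stood higher on the RAG2-/- arrays, as given above. It was the only 1 of the 3 tested endothelial markers called between genotypes in CD8α+ cells. The other 2, Esam and Vwf, differed by -0.45 and 0.35 and were not called. Of 5 red pulp macrophage markers, 4 were called higher in RAG2-/- CD8α+ cells and 5 in CD8α- cells by limma, with summed log2 values of 34.2 to 38.1 on the wild type and 44.2 to 51.2 on the RAG2-/- arrays. The part of either in the genotype differences was not tested.

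Itm2a, Hepacam2 and Igf2r also had both RAG2-/- CD8α+ arrays above both wild type ones, without passing the test. The differences were 1.62 for Itm2a (SE 0.80, limma, adjusted p = 0.150), 1.06 for Hepacam2 (SE 0.42, adjusted p = 0.0825) and 0.75 for Igf2r (SE 0.33, adjusted p = 0.113). With each probe set fitted on its own, the second Itm2a probe set was called, with a difference of 3.57 (limma, adjusted p = 0.00843). Its wild type CD8α+ values (3.69 and 4.0) are at background, and it gave 5.08 on both RAG2-/- CD8α- arrays. The size of that difference thus depends on background values, whose floor differs between the genotypes. The RAG2-/- CD8α+ values were 8.61 and 6.22, the higher on an array with neutrophil transcripts. The second Igf2r probe set differed by -0.86, the opposite sign, and was not called (adjusted p = 0.509). Gcsam lay higher without overlap by 0.44, and Mab21l3 and Ttc39a lay lower without overlap, by differences of -0.31 and -0.29 that turned to 0.36 and 0.38 with each array centred on its median. None of the 3 was called. In all, 5 of the 10 genes had both RAG2-/- arrays above both wild type arrays, beside 39.7% of all genes. Fam149a, Cltrn and Plpp1 differed by 0.42, 0.15 and 0.11, with arrays of the genotypes overlapping.

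In CD8α- cells, Hepacam2 rose from 2.83 and 2.87 in wild type to 5.03 and 6.48 in RAG2-/-, a difference of 2.91 (SE 0.42, limma, adjusted p = 0.00269). Since the wild type arrays are at background, the fold is at least 1.69 against the level of 5. That fold rests mainly on replicate 2, the array with the highest neutrophil transcripts. The 5.03 of replicate 1 is just above 5 and need not be a signal. The call was lost when values under 5 were set to 5, and was kept in the other 20 settings tried. Fam149a was called with a difference of 1.20 (SE 0.36, limma, adjusted p = 0.0337), but all 4 values (2.59, 2.56, 3.37 and 4.17) were under 5, so no fold is given, and its second probe set differed by -0.04. The Fam149a call held in 10 of 21 other settings and was lost, for example, without either wild type CD8α- replicate (adjusted p = 0.131 and 0.130) or without RAG2-/- CD8α- replicate 2 (adjusted p = 0.150). Only these 2 genes had both RAG2-/- CD8α- arrays above both wild type ones, beside 42.6% of all genes.

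The other CD8α- differences were not called. Gcsam differed by 1.45 (SE 1.24, limma, adjusted p = 0.380) and Plpp1 by 0.71 (SE 0.70, adjusted p = 0.452), both with 1 high RAG2-/- array. Without that array, CD8α- replicate 2, the differences were -0.62 and -0.49. The second Plpp1 probe set, fitted on its own, was called with a difference of 2.76 (limma, adjusted p = 0.00195), from 2.61 and 2.59 to 4.90 and 5.81. Of these values only the 5.81, on the array with the highest neutrophil transcripts, was above 5, and the floors of the genotypes differ. In all, 6 genes (Mab21l3, Fam149a, Ttc39a, Cltrn, Adgrf5 and Igf2r) were under 5 on all 4 CD8α- arrays, and no level difference between genotypes can be read for them there. Whether any genotype difference itself differed between the subsets was not tested.

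**Figure D4:**
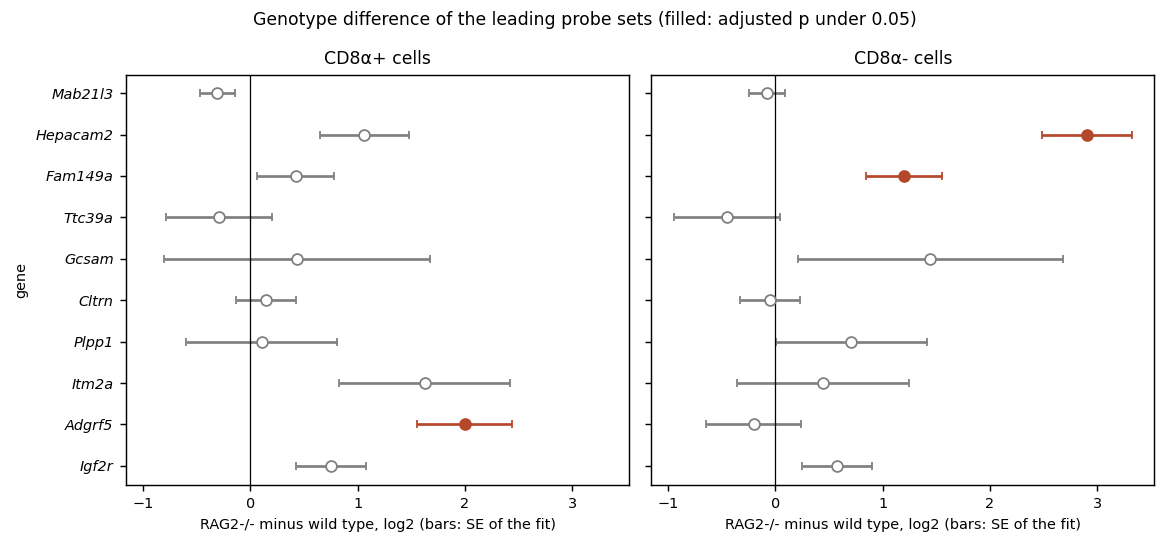
RAG2-/- minus wild type difference (x axis, log2) of the 10 leading probe sets (y axis) in CD8α+ (left) and CD8α- cells (right), with bars for the SE of the limma fit and filled points for an adjusted p under 0.05. Adgrf5 at 2.0 is filled on the left, and Hepacam2 at 2.91 and Fam149a at 1.20 on the right.

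Relatives and partners of the 10 genes, listed by family, went both ways between the subsets. Of 64 listed, 56 had a probe set and 27 passed the filter. In wild type 6 of the 27 were called higher in CD8α+ cells, 3 lower and 18 were not called, with a median difference of 0.01, beside 9.23% and 7.87% of all genes called higher and lower. In RAG2-/- 5 were called higher, 7 lower and 15 were not called, with a median of -0.25, beside 11.1% and 10.7%.

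Of 13 lipid phosphatase and lysophosphatidate genes listed with Plpp1, 4 passed the filter and these 4 were called higher in CD8α+ cells in both genotypes. Plpp2, another lipid phosphate phosphatase, read 5.65 and 6.35 against 3.89 and 3.60 in wild type and 7.46 and 7.64 against 5.38 and 5.19 in RAG2-/-, differences of 2.26 (SE 0.26, limma, adjusted p = 0.00137) and 2.27 (adjusted p = 0.00124). Lpar6, a lysophosphatidic acid receptor, read 11.07 and 11.04 against 8.73 and 8.57, and 11.83 and 11.53 against 10.30 and 10.16, differences of 2.40 (SE 0.18, adjusted p = 0.000243) and 1.45 (adjusted p = 0.00184). Both calls held in all 20 other settings. The wild type difference of Plpp2 ranged from 1.0 to 2.60 over them, and its wild type CD8α- values are at background. Plpp5 differed by 1.06 and 1.20 and Plpp6 by 0.86 and 0.64. In wild type the calls of both were lost without CD8α+ replicate 1 or 2, among other settings, and in RAG2-/- that of Plpp6 held in 6 of 20 settings. The RAG2-/- call of Plpp5 held in 14 of 20 and was lost without either CD8α+ replicate or CD8α- replicate 2.

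Ttc39c differed by 2.34 in wild type and 2.38 in RAG2-/-, with all 4 CD8α- values at background. The wild type difference fell to 0.25 at the lowest over 19 settings, with the call lost without a filter, with an offset of 16 and with values under 5 set to 5. Its wild type call was also lost without any 1 of the 4 wild type arrays. In RAG2-/- its call held in 9 of 19 settings. Ttc39b was not called. Lmo2, a transcription regulator listed with Gcsam as a germinal centre gene, was lower in CD8α+ cells, with differences of -0.89 in wild type and -1.74 in RAG2-/-, the first of these lost without any 1 of the wild type arrays. Itm2c was called in wild type alone, at 1.01, and lost that call without CD8α+ replicate 2 or either CD8α- replicate. Of the adhesion receptors listed with Adgrf5, Adgre1 (a macrophage adhesion receptor) and Adgrg6 were lower in CD8α+ cells, with differences of -4.27 and -2.36 in wild type and -3.13 and -2.16 in RAG2-/-, opposite in sign to Adgrf5. The RAG2-/- CD8α+ values of Adgrg6 (3.77 and 4.13) are at background. None of the 9 tested genes of mannose 6-phosphate sorting was called in wild type. Among them M6pr, the small cation-dependent receptor of the same pathway as Igf2r, read 12.24 and 12.42 against 12.40 and 12.26. In RAG2-/- Sort1 and Lrp1 were lower in CD8α+ cells, with differences of -1.57 and -3.96, and so was Gga2, whose call was lost in 10 of 20 settings. The call of Sort1 was lost without the 2 arrays with neutrophil transcripts. The RAG2-/- CD8α+ values of Lrp1 (2.81 and 3.67) are at background, so the size of its difference depends on them. Ace, which encodes a peptidase and was listed with Cltrn, differed by -1.61 in RAG2-/- and was not called in wild type. Its RAG2-/- values were an identical 7.08 on both CD8α+ arrays, against 8.84 and 8.56 in CD8α- cells. On the RAG2-/- CD8α+ pair 50.3% of all probe sets gave identical values, 483 of them at 5 or more, so that pair need not be a signal.

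The genes with the most similar profile were found by the root mean square difference of centred log2 values over the 8 arrays, a description that shares the arrays and the large subset contrast. For Igf2r these were the integrin gene Itgae (0.25) and Cd8a (0.33), and for Fam149a Itgae and Igf2r (both 0.41). Cltrn lay nearest to the secreted Wnt regulator gene Dkk3 (0.35) and Ttc39a (0.45), and Plpp1 to the Wnt receptor gene Fzd1 (0.37) and the collagen prolyl hydroxylase gene P3h2 (0.46). Ttc39a lay nearest to Cltrn (0.45) and Plpp1 (0.56), and Gcsam to Plpp1 (0.60) and P3h2 (0.63). Hepacam2 lay nearest to the integrin gene Itga8 (0.55) and the small GTPase gene Rab7b (0.66), which like Hepacam2 were higher on RAG2-/- CD8α- replicate 2 than on replicate 1. Itm2a lay nearest to the lipoprotein receptor gene Lsr (0.53) and the adaptor gene Clnk (0.55), and Adgrf5 to the mitochondrial exchanger gene Slc8b1 (0.56) and the scaffold gene Homer2 (0.62). Mab21l3, with the largest subset difference, had the least close neighbours of the 10, Dkk3 (0.83) and Cltrn (0.86). The median distance to all genes lay between 2.77 and 4.09.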

How the data were processed

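The 8 arrays were read from the series' table of 45101 probe sets. The values are log2 expression per probe set as deposited by the authors. Per the submitters' processing notes the wild type arrays were made with GCRMA and affy, and the RAG2-/- arrays with GCRMA; the sources used here give no tool versions and do not say which arrays were normalized jointly. No further scaling was applied. Symbols came from GEO's platform annotation: 34945 probe sets had 1 symbol, 932 several (not used) and 9160 none, and 64 were controls. The filter kept probe sets that reached log2 5 on 2 or more of the 8 arrays, and the one of highest mean led its gene. The 4 groups were fitted together with limma 3.58.1 (lmFit, eBayes) in R 4.3.3, with Benjamini-Hochberg adjustment over 8763 genes, 2-sided, and a call at an adjusted p under 0.05. The fit was tested on simulated data. Named genes are the 10 members, listed relatives and cell type markers, and the 2 genes with the nearest profile to each member. The members and lists were chosen with earlier results of these data known. Same-numbered arrays did not deviate together (correlation between groups -0.146 to 0.112), so no pairing was used. Python 3.11.15 and matplotlib 3.10.9 made the figures.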

Additional observations from a re-analysis of the deposited data

Results flagged for a closer look

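For Adgrf5 the genotype difference had opposite signs in the 2 subsets, but no level difference can be read in CD8α- cells. The RAG2-/- minus wild type difference was 2.0 in CD8α+ cells and -0.20 in CD8α- cells, with every RAG2-/- array above the wild type arrays in the first and below them in the second. The difference between the subsets was not tested. The CD8α- values (2.43 and 2.48 in wild type, 2.25 and 2.25 in RAG2-/-) were all under 5, where the floor of the deposited values differs between the genotypes. The CD8α- difference was not called (limma, adjusted p = 0.735), and it turned to 0.20 with quantile normalization and 0.45 with each array centred on its median.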

How the results depend on the processing

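All 420 recomputed subset differences of the 10 genes, under 21 other settings, were above 0 (1.59 to 8.35). The genes were chosen by large subset differences on these same arrays, so this sign is no support for them. In the genotype comparisons, 381 of 420 results of the members kept their side of the threshold. The gene counts moved more. Genes called between genotypes in CD8α+ cells numbered 3230, and 5106 with each array centred on its median (91.3% of them higher in RAG2-/- against 56.4%, where centring moved the median of all genes to 0.78), 10678 without a filter and 5221 when each probe set was fitted separately. In CD8α- cells they numbered 3548, with 10923 without a filter and 5497 by probe set; 90.5% were higher after centring (median 0.81) against 57.7%. Genes called between subsets in RAG2-/- numbered 1909, with 1226 without a filter, 818 with the compared groups alone and 1226 without the 2 RAG2-/- arrays rich in neutrophil transcripts, a setting added after seeing the data. Leaving out 1 array gave 1677 to 3468 and 1708 to 3503 genes for the genotype comparisons, and 755 to 1546 and 1168 to 1795 for the subset comparisons in wild type (1499 in all) and RAG2-/-. Centring raised the RAG2-/- values relative to wild type, as given above. The causes of the other changes were not tested.

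Of the members, 1 was called in CD8α+ cells between genotypes, and 6 after centring, 2 without a filter, 4 with an offset of 16, 3 with values under 5 set to 5 and 2 when a gene's probe sets were averaged, with 0 to 2 on leaving out 1 array; it was 0 by limma without RAG2-/- CD8α+ replicate 1 (1 at an unadjusted p under 0.05). In CD8α- cells 2 were called, and 4 after centring, 1 without a filter, 1 with the offset, 0 with values set to 5, 1 with the compared groups alone and 1 without the 2 neutrophil-rich arrays, with 1 to 4 on leaving out 1 array. With values set to 5 limma also gave 0 at an unadjusted p under 0.05, and 6 of the 10 genes are then at 5 on all 4 CD8α- arrays by construction. Mab21l3 changed sign in CD8α- cells after centring (0.58, adjusted p = 0.0231 by limma), where its values are at background. In CD8α+ cells centring also turned Mab21l3 (0.36) and Ttc39a (0.38), neither called. With the replicate number as a block, 2 members were called in CD8α+ cells (Adgrf5 and Igf2r) and 2 in CD8α- cells, and 3071, 3457, 1453 and 1717 genes in the 4 comparisons. With the numbers exchanged in RAG2-/- CD8α+ cells, also added after seeing the data, it was 2 members in CD8α+ cells, and 3247, 3570, 1505 and 1847 genes. The numbers are shared in name only, and the block shows nothing about the effects.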
